A study of Mus musculus with 9 samples.

Results

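Ttn, Neb, Nebl, Mybpc1, Mybpc2, Mybph, Myom1, Myom2 and Myom3 encode giant scaffold proteins of the muscle sarcomere and the proteins that bind or cross-link its thick filaments. They were listed by name as titin, nebulin, myosin-binding and M-band genes, and are 9 of the 35675 genes measured. All 9 were among the 15714 genes that passed the filter on low counts. RNA was sequenced from 9 libraries of mouse embryonic fibroblasts (MEFs) that all carry the Dmdmdx genotype, a model of Duchenne muscular dystrophy in which Dmd, the dystrophin gene, has a premature stop codon. The 3 groups of 3 libraries were MEFs given ectopic MyoD plus small molecules named F/R/C (MyoD F/R/C), MEFs given ectopic MyoD alone (MyoD) and MEFs with no treatment (MEF). MyoD, the product of Myod1, is a transcription factor known to turn fibroblasts into muscle cells. The labels do not spell out F/R/C, the promoter that drove MyoD or the length of treatment. They also do not say that the 3 libraries within each group are separate cultures or embryos, so each p-value sets a difference against the spread of these libraries, which may be technical.

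Titin, the product of Ttn, runs from the Z-disc to the M-band of the sarcomere, ties the thick filament to the Z-disc and acts as a molecular spring. Nebulin lies along the thin filament and sets its minimum length, and nebulette is its smaller relative at the cardiac Z-disc, with a short LIM-domain form also made outside muscle. Myosin-binding proteins C and H sit on the thick filament, and myomesins cross-link neighbouring thick filaments at the M-band, where they also bind titin.

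The libraries held 21112071 to 24291056 estimated counts. A count of 0 allows up to 3 counts, which was 0.113 to 0.144 CPM (counts scaled by TMM-normalised library size), and this floor covers counting error only. Myod1 had 6412, 6163 and 6874 counts in MyoD F/R/C libraries, 161, 239 and 394 in MyoD libraries and 56, 10 and 130 in MEF libraries, with introduced and endogenous transcripts counted together. All 10 fibroblast markers examined had counts in every library, with summed levels of 5930 to 8968 CPM in MyoD F/R/C, 11445 to 37638 CPM in MyoD and 26158 to 88636 CPM in MEF libraries. The 7 skeletal muscle markers summed to 14359 to 23488 CPM in MyoD F/R/C, 620 to 1594 CPM in MyoD and 4.33, 4.47 and 248 CPM in MEF replicates 1, 2 and 3. MEF replicate 3 thus stood apart from the other MEF libraries, and the members' calls and median fold changes are given with and without it. MyoD F/R/C replicate 3 also stood apart: relative to the mean of the other 2 libraries of its group, genes with transcripts under 2000 bases had a median log2 ratio of 0.36 and those of 8000 to 16000 bases a median of -0.80. In bulk RNA, fewer cells of a type and less RNA per cell cannot be told apart.

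The promoters of 4 members that were high in the MyoD F/R/C libraries and of Nebl, which was not, are shown because the introduced factor binds E-boxes (CANNTG on either strand), printed here in capitals. Promoter sequences in RefSeq (GRCm38.p6, 250 bases before to 50 after a gene's start) were matched for 7 of the 9 members, Neb and Myom2 being the others. Each is written 5′ to 3′ along the strand of its gene.
Mybph, chr1:134193198-134193497, plus strand: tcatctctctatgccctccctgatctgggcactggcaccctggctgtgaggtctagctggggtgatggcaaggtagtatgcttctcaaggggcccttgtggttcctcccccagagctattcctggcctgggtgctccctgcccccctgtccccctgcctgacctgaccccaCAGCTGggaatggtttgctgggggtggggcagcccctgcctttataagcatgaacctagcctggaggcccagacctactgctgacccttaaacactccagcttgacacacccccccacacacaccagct
Mybpc1, chr10:88605103-88605402, minus strand: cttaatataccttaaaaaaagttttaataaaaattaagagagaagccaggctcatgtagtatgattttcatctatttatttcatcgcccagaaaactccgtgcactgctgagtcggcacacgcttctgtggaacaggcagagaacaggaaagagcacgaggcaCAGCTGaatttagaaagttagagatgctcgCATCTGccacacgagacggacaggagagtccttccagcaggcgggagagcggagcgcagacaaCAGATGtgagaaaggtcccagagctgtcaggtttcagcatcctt
Ttn, chr2:76982498-76982797, minus strand: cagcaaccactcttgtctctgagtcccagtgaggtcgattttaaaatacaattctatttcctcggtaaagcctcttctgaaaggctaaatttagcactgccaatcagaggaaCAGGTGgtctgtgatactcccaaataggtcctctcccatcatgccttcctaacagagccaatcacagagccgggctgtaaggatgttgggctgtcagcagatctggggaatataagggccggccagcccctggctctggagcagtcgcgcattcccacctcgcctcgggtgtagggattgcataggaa
Myom3, chr4:135759465-135759764, plus strand: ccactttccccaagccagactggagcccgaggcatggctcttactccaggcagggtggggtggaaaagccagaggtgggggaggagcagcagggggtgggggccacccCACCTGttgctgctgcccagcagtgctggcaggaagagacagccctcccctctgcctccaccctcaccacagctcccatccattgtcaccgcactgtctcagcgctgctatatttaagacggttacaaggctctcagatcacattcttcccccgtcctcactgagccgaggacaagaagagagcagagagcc
Nebl, chr2:17731085-17731384, minus strand: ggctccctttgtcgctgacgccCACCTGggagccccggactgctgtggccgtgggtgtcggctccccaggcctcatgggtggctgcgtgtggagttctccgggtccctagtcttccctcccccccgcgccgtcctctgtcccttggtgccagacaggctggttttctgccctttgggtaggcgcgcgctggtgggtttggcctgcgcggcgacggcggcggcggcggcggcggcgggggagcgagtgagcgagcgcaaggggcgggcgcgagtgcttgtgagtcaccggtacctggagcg
The Nebl sequence is from the RefSeq start nearest to the first exon of its transcript Nebl-201. In Mybph the only E-box is CAGCTG, beginning 79 bases before the start, and in Mybpc1 the first of 3 is CAGCTG, beginning 87 bases before it. In Ttn and Myom3 the capitals mark CAGGTG at 138 and CACCTG at 142 bases before the start, which are the same motif on opposite strands. These 2 promoters also hold a match to the MEF2 site, beginning 166 bases before the Ttn start and 35 bases before the Myom3 start. The Nebl promoter shown holds CACCTG as well, 228 bases before its start. The 7 matched members have 10 promoters, as Nebl has more than 1. Searched on both strands, CANNTG is in 72.3% of all 32851 promoters and in 9 of these 10, with at least 1 for each of the 7 genes. The narrower forms CAGCTG (16.3% of all promoters) and CAGGTG or CACCTG (20.2%), both contained in CANNTG, are in 2 and 4 of the 10. The MEF2 site is in 3.19% of all promoters and the CArG box, bound by serum response factor, in 1.63%. Each is in 2 of the 10 (MEF2 in Myom3 and Ttn, CArG in Myom1 and in a Nebl promoter not shown). TATAAA is in 13.6% of all promoters and in 1 of the 10, that of Mybph. These matches describe the letters in each window and are not sites of measured binding.

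The MyoD F/R/C libraries held high levels of every member but Nebl. Against MEF libraries, Ttn, Neb, Mybpc1, Mybpc2, Mybph, Myom1, Myom2 and Myom3 rose, 8 of 9 members, where 19.5% of all genes tested were called higher (edgeR quasi-likelihood test, Benjamini-Hochberg adjusted p under 0.05). The members' median log2 fold change was 7.54, beside -0.04 over all genes. Without MEF replicate 3 the fitted median was 12.05. Most members held few counts in MEF replicates 1 and 2, where a fitted fold change depends on the prior count. With each MEF level raised to at least its 3-count floor, the log2 ratio of the MyoD F/R/C mean to the mean of these 2 MEF libraries was taken. Its median was 11.90 over the 9 members, Nebl included, and it ran from 7.56 (Myom1) to 13.52 (Mybpc1) for the 8 genes that rose. For the same 8 genes every MyoD F/R/C library lay above every MEF library, as it did for 27.1% of all genes. All 8 remained called when any 1 library was left out. Against MyoD libraries, 3 of 9 members were called higher, namely Mybpc2, Myom1 and Myom3, where 17.8% of all genes were, and the median was 4.01 beside -0.02 over all genes. The groups did not overlap for 8 of 9 members in this comparison (26.6% of all genes lay higher in this way). MyoD libraries against MEF libraries gave 0 of 9 members called, as for all genes (0%), with a median of 3.42 beside -0.01 over all genes. The comparisons share libraries, so their values are not independent of each other.

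**Figure D1:**
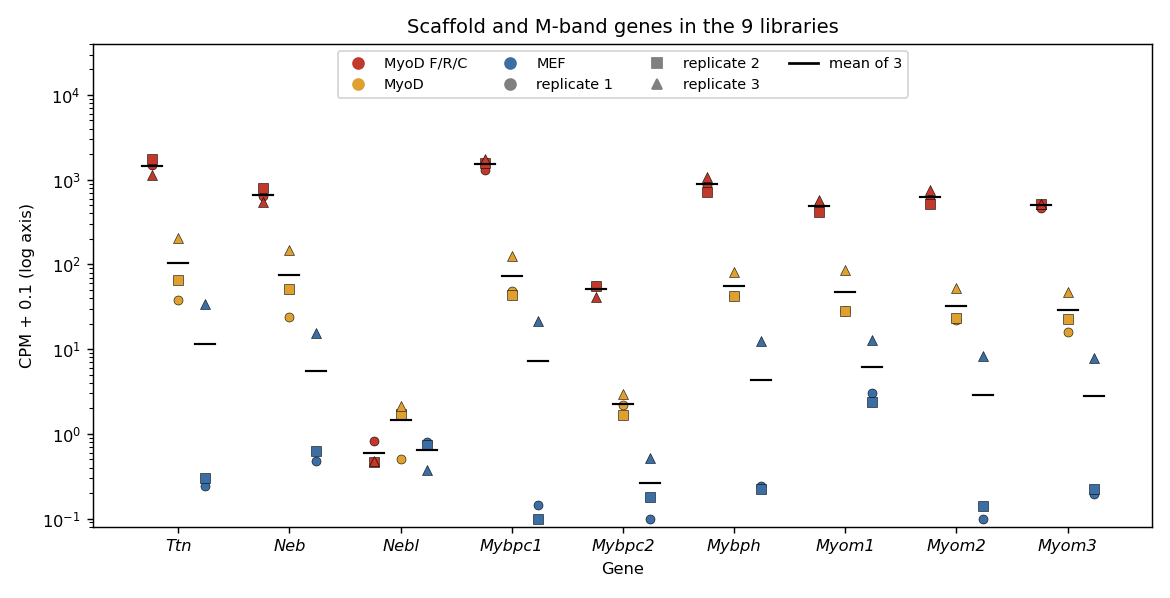
Level of each gene (CPM + 0.1, log axis) in the 3 MyoD F/R/C, 3 MyoD and 3 MEF libraries, with a symbol per replicate and a bar at the group mean. For all genes but Nebl the MyoD F/R/C libraries lie above all others, and the MEF triangle (replicate 3) lies above the other MEF symbols.

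Of the giant scaffold genes, Ttn (ENSMUSG00000051747, chromosome 2, 76703980 to 76982547, minus strand, GRCm38) stood at 1497, 1739 and 1147 CPM in MyoD F/R/C libraries, 37.6, 66.1 and 207 CPM in MyoD libraries and 0.14, 0.201 and 34 CPM in MEF libraries. The groups did not overlap in any of the 3 comparisons, but the lowest MyoD library was only 1.11 times the highest MEF library, replicate 3. Ttn rose in MyoD F/R/C against MEF libraries (log2 fold change 6.99 ± 1.95 SE, edgeR adjusted p = 0.0219). Against MyoD libraries its log2 fold change of 3.82 ± 1.68 did not pass (adjusted p = 0.109). Neb (ENSMUSG00000026950, chromosome 2, 52136647 to 52378474, minus strand), which encodes nebulin, stood at 649, 791 and 546 CPM in MyoD F/R/C libraries, 24, 50.9 and 147 CPM in MyoD libraries and 0.372, 0.523 and 15.2 CPM in MEF libraries. Again the groups lay apart, and replicate 3 was the highest library of the MyoD and of the MEF group but the lowest of the MyoD F/R/C group. Neb rose against MEF (6.95 ± 1.52, adjusted p = 0.00811) and did not pass against MyoD (3.16 ± 1.27, adjusted p = 0.0845).

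Nebl (ENSMUSG00000053702, chromosome 2, 17343909 to 17731464, minus strand) behaved unlike the other members. It stood at 0.713, 0.365 and 0.384 CPM in MyoD F/R/C libraries, 0.403, 1.62 and 2.02 CPM in MyoD libraries and 0.698, 0.644 and 0.277 CPM in MEF libraries. The groups overlapped in all 3 comparisons, and its levels rested on 6 to 43 counts per library. None of its differences passed, with log2 fold changes of -0.14 ± 0.67 in MyoD F/R/C against MEF (edgeR adjusted p = 0.885), -1.45 ± 0.66 against MyoD (adjusted p = 0.119) and 1.31 ± 0.66 for MyoD against MEF (adjusted p = 1). The sign of the first of these turned under some alternatives. Without MyoD replicate 1 the second passed as lower (edgeR adjusted p = 0.0481), where 1852 of 16319 genes were lower in the same fit. Nebl-201, of 5780 bases with a coding length of only 810, was the most abundant Nebl transcript in the MyoD and MEF groups. It averaged 0.0613 ± 0.0216 TPM (the deposited transcript abundance, scaled for length) in MyoD F/R/C, 0.365 ± 0.225 TPM in MyoD and 0.147 ± 0.0709 TPM in MEF libraries (SD, n = 3 each). Nebl-202, of 8079 bases with 28 exons and a coding length of 3042, had 0.0824 TPM in MyoD F/R/C replicate 1 and 0 TPM in the other 8 libraries, so it was barely detectable at this depth.

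Among the myosin-binding genes, Mybpc1 (ENSMUSG00000020061, chromosome 10, 88518279 to 88605152, minus strand), which encodes the slow skeletal form of myosin-binding protein C, stood at 1298, 1555 and 1738 CPM in MyoD F/R/C libraries, 48.5, 43.1 and 126 CPM in MyoD libraries and 0.0465, 0 and 21.2 CPM in MEF libraries. MEF replicates 1 and 2 held 1 and 0 counts, so the gene was not detectable there at this depth, while MEF replicate 3 held 459 counts and 99.8% of the summed MEF level. Mybpc1 rose against MEF (log2 fold change 7.76 ± 2.06 SE, edgeR adjusted p = 0.0178), and its 4.40 ± 1.76 against MyoD did not pass (adjusted p = 0.0837). Mybpc2 (ENSMUSG00000038670, chromosome 7, 44501699 to 44524656, minus strand), the fast skeletal form, was much less abundant, at 55.4, 55.3 and 41 CPM in MyoD F/R/C libraries, 2.1, 1.59 and 2.84 CPM in MyoD libraries and 0, 0.0805 and 0.415 CPM in MEF libraries. No libraries overlapped between groups, and the relative spread within the MyoD F/R/C and MyoD groups was small. Mybpc2 rose against MEF (8.23 ± 0.81, adjusted p = 0.000375) and against MyoD (4.54 ± 0.65, adjusted p = 0.0019), the smallest adjusted p of the 9 members in each. Mybph (ENSMUSG00000042451, chromosome 1, 134193448 to 134201232, plus strand), which encodes the related myosin-binding protein H, stood at 865, 724 and 1085 CPM in MyoD F/R/C libraries, 42.5, 42.3 and 81 CPM in MyoD libraries and 0.14, 0.121 and 12.4 CPM in MEF libraries. The 3 groups lay apart, with replicate 3 the highest library in each. It rose against MEF (7.73 ± 1.66, adjusted p = 0.00737), and the difference from MyoD fell just short of the threshold (4.01 ± 1.39, adjusted p = 0.0529).

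The M-band genes followed the same order of groups. Myom1 (ENSMUSG00000024049, chromosome 17, 71002633 to 71126856, plus strand), which encodes myomesin, found in all striated muscle, stood at 493, 411 and 578 CPM in MyoD F/R/C libraries, 28.3, 27.8 and 84.9 CPM in MyoD libraries and 2.93, 2.29 and 12.8 CPM in MEF libraries. The groups lay apart, and it was the only member with 57 counts or more in every MEF library. Myom1 rose against MEF (log2 fold change 6.36 ± 0.84 SE, edgeR adjusted p = 0.00102) and against MyoD (3.39 ± 0.73, adjusted p = 0.00904). Myom2 (ENSMUSG00000031461, chromosome 8, 15057653 to 15133541, plus strand), which encodes M-protein, typical of fast fibres, stood at 595, 520 and 762 CPM in MyoD F/R/C libraries, 22, 23.1 and 52 CPM in MyoD libraries and 0, 0.0403 and 8.17 CPM in MEF libraries. Its MEF replicates 1 and 2 held 0 and 1 counts, and no library overlapped with another group. It rose against MEF (7.84 ± 1.75, adjusted p = 0.0087) and missed the threshold against MyoD (4.27 ± 1.47, adjusted p = 0.0523). Myom3 (ENSMUSG00000037139, chromosome 4, 135759715 to 135815564, plus strand), the third myomesin gene, stood at 465, 515 and 513 CPM in MyoD F/R/C libraries, 15.9, 22.7 and 47.7 CPM in MyoD libraries and 0.093, 0.121 and 7.84 CPM in MEF libraries. The MyoD F/R/C libraries lay closer together here than for any other member, and MEF replicate 3 lay below every MyoD library. It rose against MEF (7.54 ± 1.54, adjusted p = 0.00594) and against MyoD (4.11 ± 1.30, adjusted p = 0.0386).

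**Figure D2:**
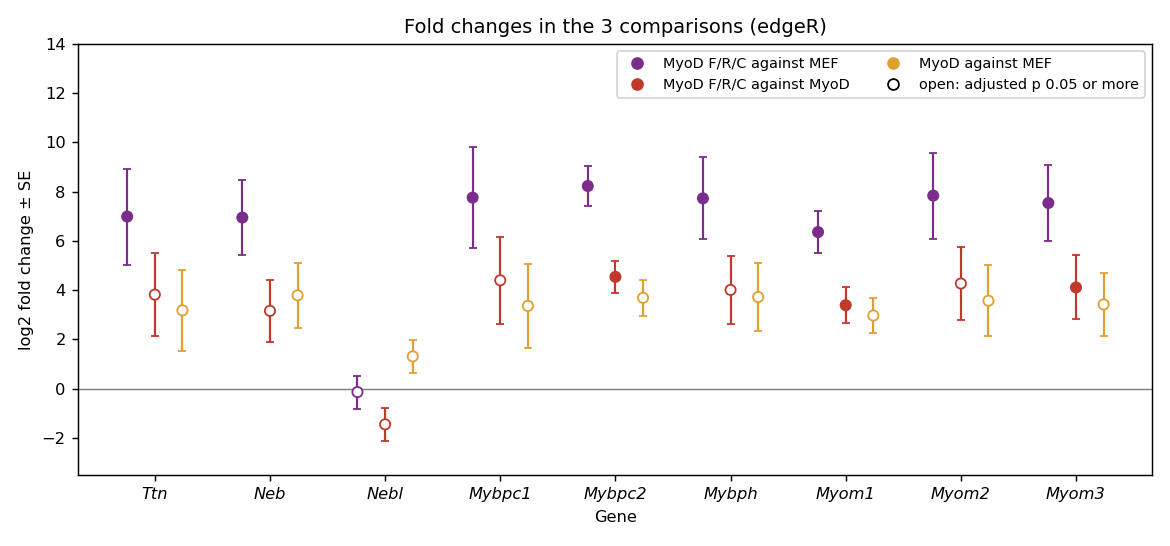
Log2 fold change (edgeR) of each gene, with bars of ± 1 SE, for MyoD F/R/C against MEF, MyoD F/R/C against MyoD and MyoD against MEF, filled where the adjusted p was under 0.05. The first comparison is filled for all genes but Nebl, the second for Mybpc2, Myom1 and Myom3, and the third for none.

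The count of 3 members called against MyoD depended on the libraries that set the spread. Without MEF replicate 3, which is no part of this comparison but enters the shared estimate of the spread, 8 of 9 members were called higher, with adjusted p from 0.000591 (Mybph) to 0.00646 (Neb), where 16.4% of all genes were called higher. Without MEF replicate 1 or without MEF replicate 2 the count was 6, where 2633 of 16292 and 2457 of 16227 genes were called higher. A fit of the MyoD F/R/C and MyoD libraries alone also called 8 of 9 (16.3% of all genes), and DESeq2, which gave no p for Myom3, called 5 (18% of all genes). The call of Myom3 ended when any of the 6 compared libraries was left out, with adjusted p of 0.0518 without MyoD replicate 3 to 0.12 without MyoD replicate 2.

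With MyoD alone, the same 8 members lay higher in every MyoD library than in every MEF library, which held for 4.4% of all genes. Their log2 fold changes ranged from 2.97 ± 0.72 for Myom1 to 3.79 ± 1.32 for Neb, and Ttn (3.18), Mybpc1 (3.36), Myom3 (3.42), Myom2 (3.57), Mybpc2 (3.69) and Mybph (3.72) lay between. None passed (edgeR adjusted p from 0.237 for Mybpc2 to 1), 6 of 9 members had an unadjusted p under 0.05, where 3.35% of all genes lay higher at that level, and DESeq2 called 2, Mybpc2 and Myom1 (0.908% of all genes higher). DESeq2 gave a p for 8 of the 9 members, with none for Myom3. MEF replicate 3 was the highest MEF library for 8 of 9 members and held 71.1% (Myom1) to 99.8% (Mybpc1) of the summed MEF level of the 8 genes that rose with F/R/C. MyoD replicate 3 was likewise the highest MyoD library for 9 of 9 members. Without MEF replicate 3, edgeR called the 8 members higher in MyoD libraries (adjusted p from 0.0024 to 0.0146), where 0.97% of all genes were, and the fitted median log2 fold change over the 9 members was 8.01. With the MEF levels raised to the floor as above, the median log2 ratio over the 9 members was 7.78, and the 8 genes ran from 4.06 (Mybpc2) to 9.25 (Ttn). Replicate numbers paired the MEF and MyoD libraries in the data, and with the number as a block 0 of 9 members were called (adjusted p from 0.0783 for Myom1), where 0.0827% of all genes were called higher.

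Levels of different genes were compared as TPM, since TPM is scaled for transcript length. The TPM of a gene sums all its transcripts, including short partial ones annotated as non-coding. In MyoD F/R/C libraries Mybpc1 (756 ± 106 TPM, SD, n = 3) and Mybph (753 ± 82.9 TPM) stood highest and did not differ beyond their spread. Next came Myom2 (220 ± 38 TPM), Neb (214 ± 18.5 TPM), Myom1 (165 ± 42.7 TPM) and Myom3 (158 ± 6.24 TPM), all below Mybph in every library, while no neighbours among these 4 kept their order in every library. Ttn at 60.3 ± 19.4 TPM, Mybpc2 at 21.7 ± 6.39 TPM and Nebl at 0.343 ± 0.288 TPM each lay below the gene before it in every library. The order in MyoD libraries was Mybph (60.2 ± 19.5 TPM), Mybpc1 (40 ± 23 TPM), Neb (28.5 ± 17.1 TPM), Myom1 (19.4 ± 12.8 TPM), Myom2 (16 ± 7.23 TPM), Myom3 (11.4 ± 5.35 TPM), Ttn (3.44 ± 3.11 TPM), Mybpc2 (1.4 ± 0.23 TPM) and Nebl (0.523 ± 0.361 TPM). The range of each gene overlapped that of the next except for Mybpc2 and Nebl. Within each MyoD library, however, Mybph lay above Mybpc1, Neb above Myom1, Myom2 above Myom3, Myom3 above Ttn and Ttn above Mybpc2. In MEF libraries the ranges of all neighbours overlapped, although Mybph lay above Mybpc1, Neb above Myom2 and Myom3 above Ttn within each library, and the means ran from 4.46 ± 7.47 TPM for Mybph to 0.104 ± 0.144 TPM for Mybpc2.

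Within families, the shares of the genes could be set side by side. Of the summed TPM of the 3 myomesin genes, Myom1 held 30.1% ± 3.47 in MyoD F/R/C and 39.8% ± 6.01 in MyoD libraries, Myom2 held 40.4% ± 0.892 in MyoD F/R/C and 35.5% ± 6.97 in MyoD libraries, and Myom3 held 29.5% ± 4.28 in MyoD F/R/C and 24.7% ± 2.82 in MyoD libraries (SD, n = 3). In MEF replicate 3 the shares of Myom1, Myom2 and Myom3 were 40.9%, 34% and 25.1%. Among the myosin-binding genes Mybpc1 held 49.3% ± 5.44 in MyoD F/R/C and 37.8% ± 5.72 in MyoD libraries, Mybph held 49.2% ± 5.22 in MyoD F/R/C and 60.7% ± 5.3 in MyoD libraries, and Mybpc2 held 1.44% ± 0.487 in MyoD F/R/C and 1.48% ± 0.42 in MyoD libraries. These shares were not tested between groups. Neb was 3.34, 2.96 and 5.03 times Ttn in TPM in MyoD F/R/C libraries, and 10, 12.8 and 6.6 times in MyoD libraries. These ratios did not overlap between the groups. They were not tested. The TPM of Neb, Ttn, Mybpc1 and the myomesin genes includes short partial transcripts, and unevenly between libraries. In MyoD F/R/C replicates 1 and 3, transcripts annotated as non-coding held 8.27% and 46.2% of Myom1 TPM. They held 12.2% and 37.9% for Myom2, 13.4% and 54.2% for Myom3, and 5.77% and 29.2% for Mybpc1. Shares of coding transcripts alone were not compared.

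**Figure D3:**
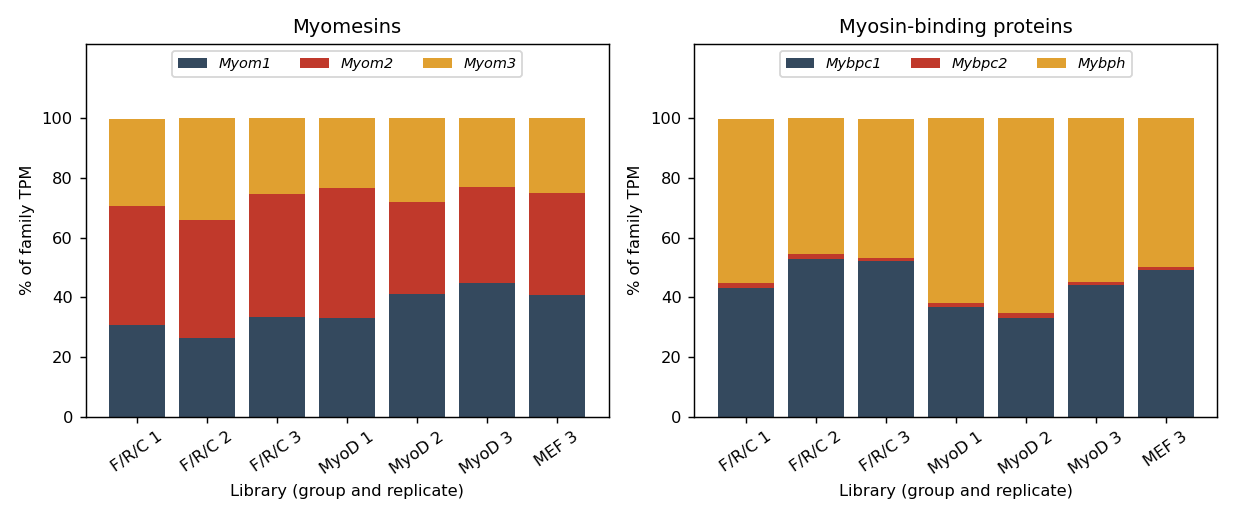
Share of the summed TPM (%) of the myomesin genes (left) and the myosin-binding genes (right) held by each gene in the 3 MyoD F/R/C libraries, the 3 MyoD libraries and MEF replicate 3; MEF replicates 1 and 2, with 0 to 3 counts for most of these genes, are not drawn. Mybpc2 holds 0.876% to 1.9% of its family in the libraries drawn, and Myom2 39.7% to 41.4% of its family in MyoD F/R/C libraries. TPM includes transcripts annotated as non-coding.

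At the level of transcripts, 33 transcripts of the 9 genes were tested among 44847. In MyoD F/R/C against MEF libraries 23 rose (6.81% of all transcripts tested) and against MyoD libraries 6 did (4.09%). In MyoD against MEF libraries 0 of 33 passed with edgeR (0.0111% of all transcripts were higher). At an unadjusted p under 0.05, 17 of the 33 were higher, as were 1106 of all 44847. DESeq2 called 5 of the 30 for which it gave an adjusted p, where 284 of all 50220 were higher. The 6 that rose against MyoD were the coding transcripts Mybpc2-201, Myom1-201 and Myom1-203 and the retained-intron transcripts Ttn-207, Mybpc1-204 and Myom3-203. Reads shared by transcripts of 1 gene are divided among them by estimation. Myom1-201 has only 62 exonic bases that Myom1-203 lacks. It stood at 4.09, 2.12 and 0.556 TPM in MyoD F/R/C and 0 TPM in all MyoD libraries. Without MyoD replicate 1 or without MyoD replicate 2 the count against MyoD was 0, where 460 and 487 of all transcripts were higher, beside 1834 with all libraries. Without MyoD F/R/C replicate 1, 2 or 3 it was 3, 1 or 3 (906, 565 and 790 of all), and without MEF replicate 3 it was 19 (1801 of all). Against MEF it was 14 without MEF replicate 1 (1457 of all, beside 3053) and 10 without MEF replicate 2 (1132 of all). It was 14, 13 and 13 without MyoD F/R/C replicates 1, 2 and 3 (1875, 1395 and 1574 of all). In MyoD against MEF libraries it was 11 without MEF replicate 3 (138 of all). These fits tested 48159 to 49699 transcripts.

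Titin transcripts were compared by their share of Ttn TPM. Ttn-202 (16891 bases, 45 exons), which covers the first 24.6% of the gene and ends in a 6520-base block absent from Ttn-201, held 44.1%, 43.4% and 51.1% of Ttn TPM in MyoD F/R/C libraries and 29%, 21.5% and 34.4% in MyoD libraries. A short titin form that ends in an exon of its own, novex-3, is known to stay near the Z-disc; whether Ttn-202 encodes it was not examined. Ttn-201 (81999 bases, 192 exons), which spans the gene, held 35%, 27.2% and 26.2% in MyoD F/R/C libraries and 59.2%, 64.6% and 46.3% in MyoD libraries. Neither share overlapped between the groups, with differences of 17.9 and -27.2 percentage points (exact permutation test, two-sided, p = 0.1 each, the smallest that 3 against 3 libraries can give). Of 25 transcript shares tested in this way 5 reached that p (Ttn-201, Ttn-202, Ttn-207, Mybpc1-201 and Mybpc1-206), and adjusted over the 25 it was 0.5 in this exact test. By estimated counts in place of TPM, which favours long transcripts, Ttn-202 held 23.2% and Ttn-201 70.8% in MyoD F/R/C libraries. The longest form, Ttn-203 (107355 bases, 347 exons), holds 24981 exonic bases that Ttn-201 lacks and stood at 0.367, 0.498 and 0.192 TPM in MyoD F/R/C libraries, 0, 0 and 0.0179 TPM in MyoD libraries and 0 TPM in all MEF libraries. At the transcript level Ttn-202 and Ttn-201 had log2 fold changes of 7.02 and 6.97 against MEF that did not pass (edgeR adjusted p = 0.0536 and 0.0567). They did not pass against MyoD either (adjusted p = 0.13 and 0.235). Ttn-203 rose against MEF (adjusted p = 0.0297) and did not pass against MyoD (adjusted p = 0.0882). The 5′ fragment Ttn-207 rose against MEF and against MyoD (adjusted p = 0.00874 and 0.0286).

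Myomesin has a splice form with an added elastic segment, known from embryonic heart. Myom1-202 carries a 294-base exon (chromosome 17, 71082203 to 71082496) absent from Myom1-203, and whether it encodes that segment was not examined. Myom1-202 stood at 7.14 ± 3.99 TPM in MyoD F/R/C, 3.15 ± 4.15 TPM in MyoD and 0.292 ± 0.506 TPM in MEF libraries (SD, n = 3), and did not pass in any comparison (edgeR adjusted p = 0.219, 0.743 and 1 for MyoD F/R/C against MEF, MyoD F/R/C against MyoD and MyoD against MEF). Myom1-203 stood at 115 ± 11.8 TPM in MyoD F/R/C, 11.8 ± 5.09 TPM in MyoD and 1.46 ± 1.45 TPM in MEF libraries and rose against MEF and against MyoD (adjusted p = 0.00408 and 0.0254). For Neb, the long transcripts Neb-202 (22489 bases, 157 exons) and Neb-203 (21456 bases, 152 exons) had 6.13, 7.02 and 2.07 TPM and 11.7, 13.5 and 1.16 TPM in MyoD F/R/C libraries, while the fragment Neb-208 (1599 bases, at the 3′ end of the gene) had 44.2, 64.7 and 101 TPM. Replicate 3 was thus the lowest library for the long transcripts and the highest for the fragment. Mybph-201 carried nearly all of Mybph, at 93.7% ± 0.844 of its TPM in MyoD F/R/C and 95% ± 0.841 in MyoD libraries.

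The members also differed within the MyoD F/R/C group. In replicate 3, Ttn, Neb, Nebl and Mybpc2 stood at 0.709, 0.758, 0.713 and 0.739 times the mean CPM of the other 2 libraries, and Mybpc1, Mybph, Myom1, Myom2 and Myom3 at 1.22, 1.37, 1.28, 1.37 and 1.05 times. Transcripts annotated as non-coding, such as retained-intron and processed fragments, held 6.76%, 9.44% and 26.1% of the TPM of the 8 members other than Nebl in MyoD F/R/C replicates 1, 2 and 3. Over all protein-coding genes the shares were 12.3%, 11.6% and 12.4%. By gene they were 24.2%, 30.6% and 56.9% for Neb, 5.77%, 5.49% and 29.2% for Mybpc1, 8.27%, 8.45% and 46.2% for Myom1, 12.2%, 21.5% and 37.9% for Myom2 and 13.4%, 17.1% and 54.2% for Myom3. Ttn was the exception, at 15.2%, 23.4% and 19.6%. Several of the fragments lie at the 3′ end, such as Mybpc1-203 at 5.51, 10.8 and 115 TPM and Myom1-208 at 10.5, 10.5 and 97 TPM. The part of this library's length profile in the members' results was not tested beyond leaving the library out. That kept the 8 calls against MEF. Against MyoD it left 2 members called, beside 3, where 2074 genes were higher, beside 2796. Member transcripts called became 13, beside 23, against MEF and 3, beside 6, against MyoD. All transcripts called higher became 1574, beside 3053, and 790, beside 1834.

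**Figure D4:**
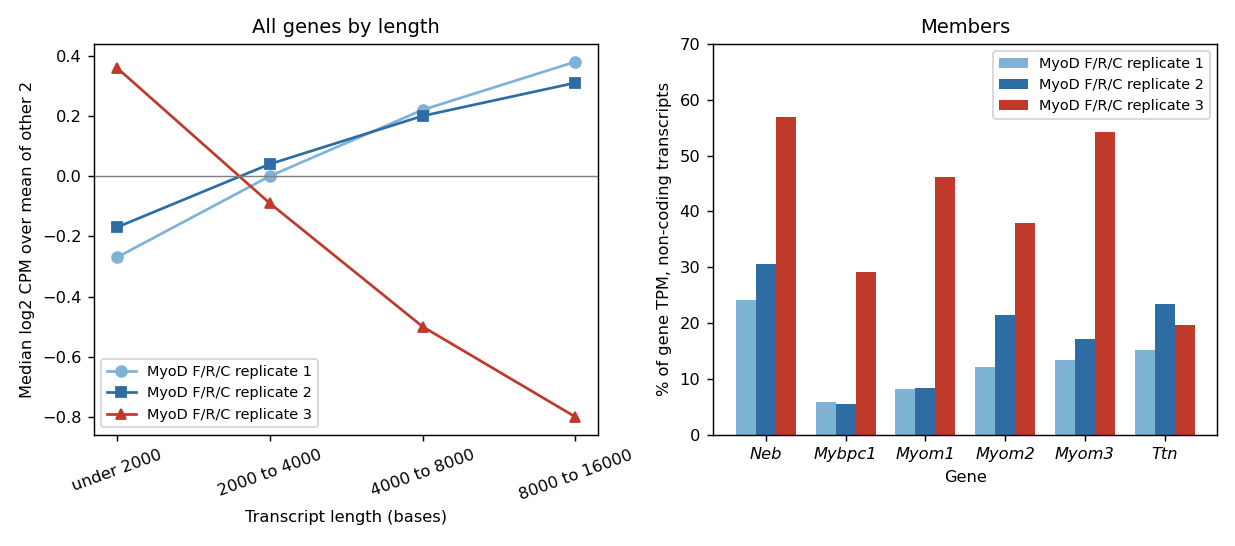
Left, median over genes of the log2 CPM of each MyoD F/R/C library over the mean of the other 2, by transcript length in bases (3783, 4288, 2161 and 222 genes); right, share of each gene's TPM (%) from transcripts annotated as non-coding in the 3 MyoD F/R/C libraries. Replicate 3 runs from 0.36 for the shortest to -0.80 for the longest class drawn (the class over 16000 bases, 5 genes at -0.50, is not drawn), and has the highest non-coding share for all genes drawn but Ttn.

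Partner genes were read from 3 lists, since the scaffolds work only with the proteins they anchor. Of 16 titin partners, which bind titin or signal along it, 11 rose and 0 fell against MEF (median log2 fold change 6.70, beside -0.04 over all genes), where 19.5% of all genes rose. Against MyoD 9 rose and 0 fell (median 3.36), where 17.8% of all genes rose. Tcap, which caps titin at the Z-disc, averaged 56.6 ± 33.5 CPM in MyoD F/R/C, 4.53 ± 0.955 CPM in MyoD and 0.119 ± 0.142 CPM in MEF libraries (SD, n = 3), and rose against MEF and against MyoD (edgeR adjusted p = 0.00033 against MEF and 0.0034 against MyoD). Capn3, a muscle protease bound to titin, rose to 59.6 ± 14.9 CPM in MyoD F/R/C, against 4.87 ± 3.24 CPM in MyoD and 0.287 ± 0.312 CPM in MEF libraries (adjusted p = 0.000457 against MEF and 0.00429 against MyoD). Ankrd23, an ankyrin-repeat protein of the titin N2A region, was at 330 ± 96.5 CPM in MyoD F/R/C, 38.1 ± 27.7 CPM in MyoD and 6.1 ± 0.831 CPM in MEF libraries (adjusted p = 0.00036 against MEF and 0.00259 against MyoD). Cmya5, which binds titin and desmin, was at 157 ± 33.4 CPM in MyoD F/R/C, 19 ± 11.2 CPM in MyoD and 13.6 ± 4.54 CPM in MEF libraries (adjusted p = 0.000873 against MEF and 0.00199 against MyoD). The 5 that did not pass against MEF were Fhl1, Fhl2, Sqstm1, Nbr1 and Cryab, with log2 fold changes from -1.11 for Fhl2 to 2.10 for Cryab (adjusted p = 0.0663 to 0.657). MEF libraries already held these genes, at means from 74.4 CPM for Fhl2 to 390 CPM for Sqstm1.

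Of 15 nebulin and thin-filament scaffold partners, 14 rose and 1 fell against MEF (median 7.41, with 19.5% of all genes higher), and 10 rose and 1 fell against MyoD (median 3.99, with 17.8% of all genes higher). Tmod1, which caps the pointed ends of thin filaments, averaged 257 ± 44.7 CPM in MyoD F/R/C, 15.3 ± 6.87 CPM in MyoD and 2.61 ± 0.638 CPM in MEF libraries (SD, n = 3), with the smallest adjusted p of any partner (edgeR, 0.000177 against MEF and 0.000488 against MyoD). Tmod4, its skeletal relative, was at 22.1 ± 2.68 CPM in MyoD F/R/C, 0.669 ± 0.102 CPM in MyoD and 0.296 ± 0.235 CPM in MEF libraries (adjusted p = 0.000299 against MEF and 0.000659 against MyoD). Klhl41, which stabilises nebulin, rose to 667 ± 151 CPM in MyoD F/R/C, against 40.1 ± 24.2 CPM in MyoD and 4.68 ± 6.27 CPM in MEF libraries (adjusted p = 0.00227 against MEF and 0.0148 against MyoD). Ldb3, a Z-disc adaptor protein, averaged 750 ± 73.3 CPM in MyoD F/R/C, 50 ± 30.3 CPM in MyoD and 8.39 ± 9.78 CPM in MEF libraries (adjusted p = 0.00154 against MEF and 0.00908 against MyoD). The muscle cofilin gene Cfl2 was at 576 ± 136 CPM in MyoD F/R/C, 120 ± 62.1 CPM in MyoD and 92.3 ± 41.6 CPM in MEF libraries (log2 fold change 2.64 ± 0.44 against MEF and 2.26 ± 0.44 against MyoD, adjusted p = 0.00262 and 0.0059). Kbtbd13, mutated in a human nemaline myopathy, was rare, at 1.28 ± 0.0393 CPM in MyoD F/R/C, 0.0619 ± 0.0537 CPM in MyoD and 0.153 ± 0.12 CPM in MEF libraries, with MyoD and MEF libraries near or below the floor. The gene that fell was Lasp1, a small nebulin-family protein of non-muscle cells, at 57.8 ± 10.1 CPM in MyoD F/R/C, 214 ± 18.9 CPM in MyoD and 236 ± 33.5 CPM in MEF libraries. Its log2 fold change was -2.03 ± 0.20 against MEF, where 18.1% of all genes fell, and -1.89 ± 0.20 against MyoD, where 16.1% did (adjusted p = 0.000365 against MEF and 0.000674 against MyoD).

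Of 11 thick-filament partners, 11 rose and 0 fell against MEF (median 7.62, with 19.5% of all genes higher), and 5 rose and 0 fell against MyoD (median 4.18, with 17.8% of all genes higher). Ckm, the muscle creatine kinase held at the M-band and also on the skeletal marker list, averaged 157 ± 40.1 CPM in MyoD F/R/C, 5.6 ± 3.4 CPM in MyoD and 0.579 ± 0.817 CPM in MEF libraries (SD, n = 3; edgeR adjusted p = 0.00104 against MEF and 0.00532 against MyoD). Unc45b, a myosin chaperone, was at 164 ± 43.6 CPM in MyoD F/R/C, 9.05 ± 5.95 CPM in MyoD and 1.15 ± 1.61 CPM in MEF libraries (adjusted p = 0.00173 against MEF and 0.0102 against MyoD). Mylk2, the skeletal myosin light chain kinase, was at 48.3 ± 15.5 CPM in MyoD F/R/C, 2.27 ± 2.05 CPM in MyoD and 0.492 ± 0.442 CPM in MEF libraries (adjusted p = 0.00166 against MEF and 0.00655 against MyoD). The slow myosin gene Myh7 averaged 342 ± 126 CPM in MyoD F/R/C, 16.1 ± 12.9 CPM in MyoD and 1.75 ± 3 CPM in MEF libraries (adjusted p = 0.00847 against MEF and 0.0431 against MyoD). The fast myosin gene Myh2 rose against MEF (adjusted p = 0.00106), yet averaged 15.4 ± 9.18 CPM in MyoD F/R/C and 15.4 ± 5.64 CPM in MyoD libraries (log2 fold change 0.00 ± 0.69, adjusted p = 0.999), against 0.0769 ± 0.133 CPM in MEF libraries. Myosin heavy chain genes are similar in sequence, so reads could be divided among them by estimation. Over the 3 lists together, MyoD against MEF libraries gave 0 of 42 genes called with edgeR, 27 at an unadjusted p under 0.05 (3.35% of all genes higher). DESeq2 called 11 of the 34 for which it gave a p (0.908% of all genes higher). With the replicate block 3 were called, Capn3, Tcap and Tmod1 (adjusted p = 0.0451 each, with 0.0827% of all genes higher), and without MEF replicate 3 edgeR called 28 (0.97% of all genes). The 25 calls against MyoD (24 higher and 1 lower) became 16 without MyoD replicate 1 or without MyoD F/R/C replicate 3 and 15 without MyoD replicate 2. All genes called in these 3 fits numbered 3734, 3834 and 3620, beside 5327 with all libraries.

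Markers of other cell types moved in part with the groups. Of the 10 fibroblast markers 4 fell in MyoD F/R/C against MEF libraries (Col1a1, Col1a2, Fbln2 and Fn1), where 18.1% of all genes fell. Against MyoD 3 fell, where 16.1% of all genes did. Fold changes were positive for 1 of the 10 against MEF and for 2 against MyoD. Dcn had log2 fold changes of 0.15 against MEF and 2.18 against MyoD, and Thy1 of -0.11 and 0.35, none of which passed. The part of the fibroblast markers in the members' results was not tested. Cardiac markers, listed because nebulette is known from heart, summed to 9.48 to 15.1 CPM in MyoD F/R/C, 3.18 to 30.2 CPM in MyoD and 1.86 to 21.9 CPM in MEF libraries. Of these 8 genes 3 were tested. Myh6 and Nppb rose against MEF (edgeR adjusted p = 0.00364 and 0.00777) and against MyoD (adjusted p = 0.00313 and 0.0177), at 2.43 to 5.42 CPM in MyoD F/R/C libraries. The other, Tbx5, had log2 fold changes of -2.63 against MEF and -3.05 against MyoD that did not pass (adjusted p = 0.0728 and 0.051), and made up most of the MEF and MyoD sums, at up to 28.7 CPM in MyoD and 21.5 CPM in MEF libraries. The defining factor Nkx2-5 had at most 0.182 CPM and the atrial gene Myl7 at most 0.0456 CPM in any library. Gata4 and Nppa, also not tested, were at 0.21 to 0.957 CPM and 0.21 to 0.72 CPM in MyoD F/R/C libraries. Elsewhere Gata4 had at most 0.0465 CPM and Nppa 0 CPM. Tbx20, not tested, had at most 0.21 CPM in MyoD F/R/C and up to 0.966 CPM in MEF libraries. Smooth muscle markers summed to 381 to 1310 CPM in MyoD F/R/C, 173 to 1288 CPM in MyoD and 701 to 1878 CPM in MEF libraries, and the lowest adjusted p in MyoD F/R/C against MEF libraries was 0.239, for Tagln. Macrophage and endothelial markers summed to at most 7.64 and 3.05 CPM in any library. Among them Cd68 rose in MyoD F/R/C against MEF libraries (log2 fold change 1.37 ± 0.35, adjusted p = 0.0154), and Tek, at 0 to 2 counts in MyoD F/R/C libraries, fell against MEF (-4.70 ± 0.72, adjusted p = 0.00179) and against MyoD (-3.82 ± 0.71, adjusted p = 0.00528). The other macrophage marker tested, Csf1r, did not pass against MEF (-0.24 ± 0.80, adjusted p = 0.836). Ptprc and Adgre1, not tested, had at most 0.042 and 0 CPM in MyoD F/R/C libraries. The endothelial marker Kdr did not pass against MEF (0.91 ± 0.68, adjusted p = 0.325). Pecam1 and Cdh5, not tested, lay higher in every MyoD F/R/C library (0.288 to 1.19 CPM) than in every MEF library (0 to 0.231 CPM).

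Across the 9 libraries the genes most like each member were ranked by Pearson's r of log2(CPM + 1), which mostly reflects the difference between the group means and is given as a description. Trim72, a membrane repair protein of muscle, was nearest to Myom2 (r = 0.9995) and Myom3 (0.9987). The fast troponin C gene Tnnc2 was nearest to Mybph (0.9991), and Casq2, a calcium store protein, to Mybpc1 (0.9985). Klhl30 was nearest to Myom1 (0.9985) and Ufsp1 to Mybpc2 (0.9969). The calcium release channel gene Ryr1 was nearest to Neb (0.9973), and the embryonic myosin gene Myh3 to Ttn (0.9960). Among the 8 members other than Nebl, r ranged from 0.907 to 0.999 over 28 pairs. Nebl had r of -0.216 to 0.023 with these 8, and its nearest gene was Ckb, the brain creatine kinase, at 0.9333.

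Reads of the members could be assigned with little ambiguity between genes. Of the distinct 31-base words of each member's transcripts, 0% (Ttn, Mybpc1, Mybpc2, Mybph and Myom1) to 1.01% (Myom2) occurred in another gene, and none was shared between members. Some exons overlap genes on the opposite strand, and whether strand was used in counting is not given in the sources used here. Adora1 overlaps 661 exonic bases of Mybph-201, 36.2% of its length, and had 9 to 135 counts per library. Myl12a, with 5660 to 16424 counts, overlaps 207 bases of the minor transcript Myom1-209 and no other Myom1 transcript.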

How the data were processed

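PolyA RNA from 9 libraries of Dmdmdx MEFs, 3 per group, was sequenced after TruSeq Stranded mRNA preparation, per the labels' protocols. The deposited files hold kallisto estimated counts and TPM for each of 121843 Ensembl transcripts, per the file headers. The submitters' processing notes name bcl2fastq 2.19, Trimmomatic 0.36, kallisto 0.44, edgeR 3.28 and GRCm38.p6. Which annotation release and kallisto settings were used, and whether strand entered, is not given in the sources used here.

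Transcripts were joined to genes through GENCODE M21 (121104 matched). The other 739 held 0.2% to 0.494% of the counts and were left out. Estimated counts were summed to 35675 genes and rounded. Genes were filtered with filterByExpr (minimum count 10, minimum total 15), scaled by TMM and fitted together over all 9 libraries in edgeR 4.0.16 (R 4.3.3). The quasi-likelihood F test was two-sided, with Benjamini-Hochberg adjustment over all genes or transcripts tested and a threshold of 0.05. Standard errors (SE) are the size of the log2 fold change over the root of F. Values are mean ± SD over the 3 libraries of a group. CPM is scaled by the TMM-normalised library size. Shares were tested by an exact permutation test, whose smallest two-sided p for 3 against 3 libraries is 0.1. Tables were handled in Python 3.11.15 with pandas 2.3.3 and scipy 1.17.1. The edgeR fit was tested on simulated data.

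Same-numbered MEF and MyoD libraries deviated from their group means together (correlations of 0.7, 0.695 and 0.766 over genes), above the limit of 0.1 in every pair, so these were taken as paired by the data. The labels give no reason for the pairing. Alternatives were DESeq2 1.42.0, other scalings and filters, pairs of groups alone, the replicate block, counts rebuilt from TPM and leaving out each library.

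The members and lists were chosen with earlier results of these data known. All members were named. For each member the 3 other genes of highest correlation, in each partner list up to 4 genes of smallest adjusted p per direction, and per member up to 3 transcripts of highest mean TPM were eligible. Other partners and transcripts named were chosen after their values were seen.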

Additional observations from a re-analysis of the deposited data

How the results depend on the processing

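Of the members' log2 fold changes under alternatives that left out no single library, 211 kept their direction and their side of the threshold, 25 newly passed it and 1 changed sign. The sign change was Nebl in MyoD F/R/C against MEF libraries (-0.14), at 0.46 with counts rebuilt from TPM. Leaving out single libraries moved that value between -0.52 (without MyoD F/R/C replicate 1) and 0.02 (without MEF replicate 1, and also without MyoD F/R/C replicate 2), and the cause was not tested.

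In MyoD against MEF libraries, all genes called numbered 0, and 170 with DESeq2, 11 with no filter beyond 1 count, and 0 to 161 with single libraries left out. Members called there numbered 0, and 2 with DESeq2 and 0 to 8 with single libraries left out. Partner genes numbered 0, and 11 with DESeq2, 3 with no filter and 0 to 28 with single libraries left out. Member transcripts numbered 0, and 5 with DESeq2 (284 of all 50220 transcripts higher) and 0 to 11 with single libraries left out.

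In MyoD F/R/C against MyoD libraries, members called numbered 3, and 5 with DESeq2, 5 with no filter, 8 with the pair of groups alone, 6 with counts rebuilt from TPM and 2 to 8 with single libraries left out. Genes called higher numbered 2796 of 15714 in the main fit, 3392 of 18842 with DESeq2 and 2497 of 26823 with no filter. They numbered 2475 of 15193 with the pair of groups alone and 2311 of 15933 with counts rebuilt from TPM. Partner genes numbered 25, and 15 to 35 with single libraries left out. Member transcripts numbered 6, and 17 with DESeq2 (4386 of all 53807 transcripts higher), 19 with the pair of groups alone (1925 of 40290) and 0 to 19 with single libraries left out. All genes called numbered 5327, and 3620 to 5493 with single libraries left out and 6363 with DESeq2. In MyoD F/R/C against MEF libraries, with single libraries left out, all genes called ranged from 4372 to 6362 (5916 with all libraries), members numbered 8 each time, partner genes ranged from 35 to 39 and member transcripts from 10 to 24. DESeq2 there called 6919 genes, 7 members, 31 partner genes and 26 member transcripts (5365 of all 55598 transcripts higher). It gave a p for only 8 of the 9 members and 34 of the 42 partner genes.

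The fit with a replicate block called 13 genes, 0 members and 3 partner genes in MyoD against MEF libraries. MyoD F/R/C libraries were not taken as paired with the others (correlations of 0.144, 0.145 and 0.0809 with MEF and 0.0922, 0.114 and 0.151 with MyoD libraries), although every library correlated best with its own number, a hint from the data and not from the design. The block gave 8 members in MyoD F/R/C against MyoD libraries, where 3348 of 15714 genes were higher, beside 2796 in the main fit.

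Settings chosen after seeing the data were the block with pairs of groups alone, and leaving out the third library of every group. The first gave 8 members in MyoD F/R/C against MyoD libraries, where 2232 of 15193 genes were higher. It gave 0 member transcripts against MEF, as for all 39979 transcripts tested. At an unadjusted p under 0.05, 31 member transcripts and 4978 of all transcripts were higher there. The second gave 8 members, 38 partner genes and 22 member transcripts in MyoD F/R/C against MyoD libraries. All genes called there numbered 5087 of 15947, 2695 of them higher, and 1478 of 47385 transcripts were higher. In MyoD against MEF libraries it gave 161 genes, 8 members, 27 partner genes and 12 member transcripts, where 153 of 47385 transcripts were higher. Scaling by total counts moved the median log2 fold change of all genes to -0.205 in MyoD F/R/C against MyoD (2295 higher and 3119 lower, beside 2796 and 2531) and to -0.128 against MEF libraries, and left the directions of the 8 members other than Nebl as they were. Depth limited Nebl, at 6 to 43 counts per library, and the MEF levels of most members.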
